A study of Homo sapiens with 9 samples.

Results

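Genes that license, start and carry out DNA replication, many of them under the control of the E2F transcription factors, were followed in LNCaP cells, a human prostate cancer line, treated with NRG1. The 49 genes were listed by name, namely those with a row in the deposited count table and at least 10 counts in at least 3 of its 9 columns. All 49 met that rule, out of 37351 genes in the table, and all 49 were among the 19250 genes with enough counts to be tested. NRG1 is a secreted growth factor that binds the receptor HER3, and the treated cells received 15 ng/mL. RNA-Seq libraries were made at 0, 12 and 24 hours, with 3 biological replicates at each time, all from cells first starved for 6 to 12 hours in medium without serum and calcium. The labels call the 0 hour cells NRG1-treated as well, and no cells kept for 12 or 24 hours without NRG1 were analysed here, so NRG1 and time in that medium cannot be told apart in any comparison with 0 hours. Each replicate was a well of a single cell line, so p-values measure the spread between wells.

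E2F factors bind DNA with a DP partner, and in resting cells the RB family of proteins holds them inactive. When cyclin-dependent kinases phosphorylate RB, E2F1 to E2F3 switch on genes needed to enter S phase, and E2F7 and E2F8 later repress many of the same genes. Replication begins with licensing: ORC, CDC6 and CDT1 load the MCM2-7 ring onto origins, and geminin (GMNN) binds CDT1 to prevent loading a second time in the same cycle. CDC45 and the GINS complex then turn the ring into an active helicase, after which primase and the DNA polymerases copy the strands with the clamp PCNA. In bulk RNA from a dividing population, a change in the level of such a gene per cell and a change in the share of cells in S phase cannot be told apart.

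Many promoters of these genes held DNA words that E2F factors are known to bind. RefSeq windows (GRCh38.p14) of 250 bases before and 50 after a start site were given for 42 of the 49 genes, 57 windows in all. They were searched on both strands for the 4 words TTTCCCGC, TTTCGCGC, TTTGCCGC and TTTGGCGC. At least 1 word was found in 25 of the 57 windows, or 43.9%, against 3.31% of the 35116 windows of all genes in the table and 4.67% of the 17155 windows of tested genes. By gene, 24 of 42 held a word, against 6.31% of tested genes with a window. The windows that held it lay 30061 bases for TIPIN and 97391 for GINS3 from the gene's start in the count table. The genes were listed as E2F targets and replication genes, so these high shares are in part a product of that choice. The genes CCNE2, DSCC1, E2F8, GINS4, MCM4, MCM5 and RPA2 had no window. The stretches below show the words, in capitals, in 4 genes that rose after NRG1. MCM6 is shown because its window held 4 matches, in 2 pairs that overlap on opposite strands and were counted separately. CDC25A, CDT1 and PCNA are shown as single matches in a cell cycle phosphatase, a licensing factor and the sliding clamp. They lie at chr2:135876506-135876611 (MCM6, minus strand), chr3:48188438-48188477 (CDC25A, minus strand), chr16:88803738-88803777 (CDT1, plus strand) and chr20:5126658-5126697 (PCNA, minus strand), each just upstream of the start site.
MCM6: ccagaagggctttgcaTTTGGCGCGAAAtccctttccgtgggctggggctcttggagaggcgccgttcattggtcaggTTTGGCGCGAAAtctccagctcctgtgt
CDC25A: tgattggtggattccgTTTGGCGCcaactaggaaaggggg
CDT1: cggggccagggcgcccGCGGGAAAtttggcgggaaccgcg
PCNA: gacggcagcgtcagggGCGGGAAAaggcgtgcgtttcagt

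An E2F word was present in 12 of the 20 genes with a window that rose at 12 or 24 hours and in 12 of the 22 other genes with a window. The CCAAT box, bound by NF-Y, was searched as CCAAT on both strands. It was in 56.1% of the 57 windows, against 34.6% of all windows and 34.7% of windows of tested genes. The cell cycle homology region (CHR), a promoter element of genes of late cell cycle phases, was searched as TTTGAA and TTCGAA on both strands. It was in 5.26%, or 3 of the 57 windows, against 16.4% of all windows and 11.9% of windows of tested genes. These are matches of letters only, and binding was not measured.

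Depth allowed each of the 49 genes to be measured in every library. Total counts were 58267359 to 60985825 at 0 hours, 48760003 to 54083444 at 12 hours and 47016302 to 54605125 at 24 hours. E2F2 had the fewest counts, 140 to 179 per library, and MCM7 the most, 6761 to 7543. Levels are given as CPM, read counts relative to the TMM-scaled library total. On totals without TMM scaling, summed luminal prostate markers were at 4710 to 4738 CPM at 0 hours and 4765 to 4789 at 12 hours. At 24 hours they were at 4441 to 4580, so the 3 times did not overlap. Basal prostate and leukocyte markers were at or under 0.432 summed CPM. Fibroblast markers were at 23.9 to 27.99 CPM and neuroendocrine markers at 2.62 to 3.79 CPM, with ranges that overlapped between the times. Summed endothelial markers, which were nearly all VWF, were at most 13.6 CPM at 0 hours, 9.31 at 12 hours and 8.06 at 24 hours, and their part in the results was not tested. Among the 0 hour libraries, replicate 1 had the lowest levels of the gene set, and values without it are given beside the counts.

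Part of the set rose by a modest amount after NRG1. A gene passed when its p-value from edgeR, adjusted over all tested genes, was 0.05 or lower. At 12 hours, 19 of the 49 genes had risen from 0 hours, 1 had fallen and 29 did not pass. Of all 19250 tested genes, 10.6% rose and 8.16% fell by the same rule. At 24 hours, 21 genes had risen, 1 had fallen and 27 did not pass, against 11.6% and 9.48% of all genes. The tested genes include ones with lower counts than any of the 49. With only the 16445 genes that had at least 10 counts in every library, 1967 rose and 1654 fell at 12 hours. At 24 hours 2163 rose and 1921 fell. With that filter 19 and 21 of the 49 genes rose at 12 and 24 hours. Only GMNN also reached a change of 1.5-fold, at 12 and at 24 hours, where 0.992% and 1.53% of all genes rose and 1.38% and 1.78% fell by both thresholds. The F test that compares all 3 times at once was passed by 24 of the 49 genes and by 25.1% of all genes. The median log2 fold change of the 49 genes was 0.17 at 12 hours and 0.16 at 24 hours, while the median over all tested genes was -0.0084 and -0.0068. Values were above 0 for 45 and 42 of the 49 genes and for 48.1% and 48.4% of all genes. Without 0 hour replicate 1, 18 genes rose at each time, and the medians were 0.118 and 0.145.

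The same direction was visible library by library. The mean over the 49 genes of log2 CPM, centred on each gene's mean over the 9 libraries, was -0.169, -0.0634 and -0.0881 at 0 hours, 0.0656, 0.0225 and 0.0645 at 12 hours and 0.0609, 0.0509 and 0.0562 at 24 hours. All 6 treated libraries lay above all 3 of the 0 hour libraries, and the 12 and 24 hour values overlapped. All 3 libraries lay above those of 0 hours for 25 of the 49 genes at 12 hours and for 31 at 24 hours, against 17.5% and 17.3% of all tested genes. They all lay below for 1 gene at each time, against 15.3% and 16.2%. The 12 and 24 hour comparisons share the 0 hour libraries, so their counts are not independent of each other.

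**Figure D1:**
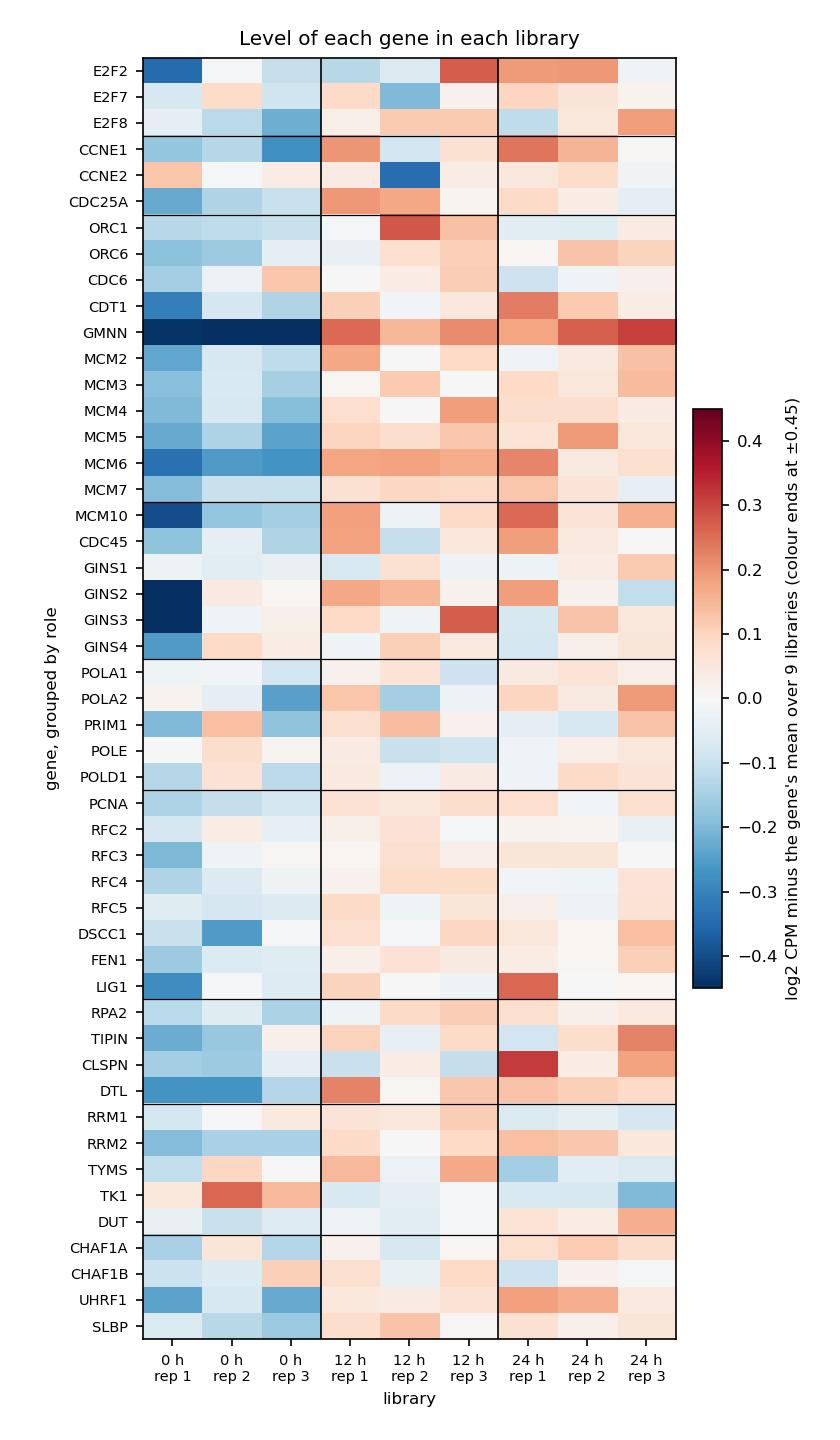
Log2 CPM of the 49 genes (rows, grouped by role with lines between groups) in each of the 9 libraries (columns), as the difference from the gene's mean over the libraries. Blue is lower and red higher, with the colour scale ending at 0.45 in either direction. The 0 hour columns are mostly blue, most deeply in replicate 1, while TK1 is red there.

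By time course, 17 genes rose at both 12 and 24 hours: CCNE1, CDT1, DTL, FEN1, GMNN, MCM2 to MCM7, MCM10, PCNA, RPA2, RRM2, SLBP and UHRF1. Of all tested genes, 10.6% rose at 12 hours and 11.6% at 24 hours. The share that rose at both was not taken, and both comparisons use the same 0 hour libraries. CDC25A and ORC1 passed at 12 hours alone, and CHAF1A, CLSPN, DUT and ORC6 at 24 hours alone. None of these 6 genes passed in the direct comparison of 24 with 12 hours. The 95% intervals of that difference, not adjusted for the number of genes, still left out 0 for some. They were 0.066 to 0.40 for CLSPN, 0.026 to 0.19 for DUT, 0.0062 to 0.20 for CHAF1A and -0.32 to -0.0012 for ORC1. For CDC25A and ORC6 the interval held 0. TK1 fell at both times. The other 25 genes passed at neither time.

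**Figure D2:**
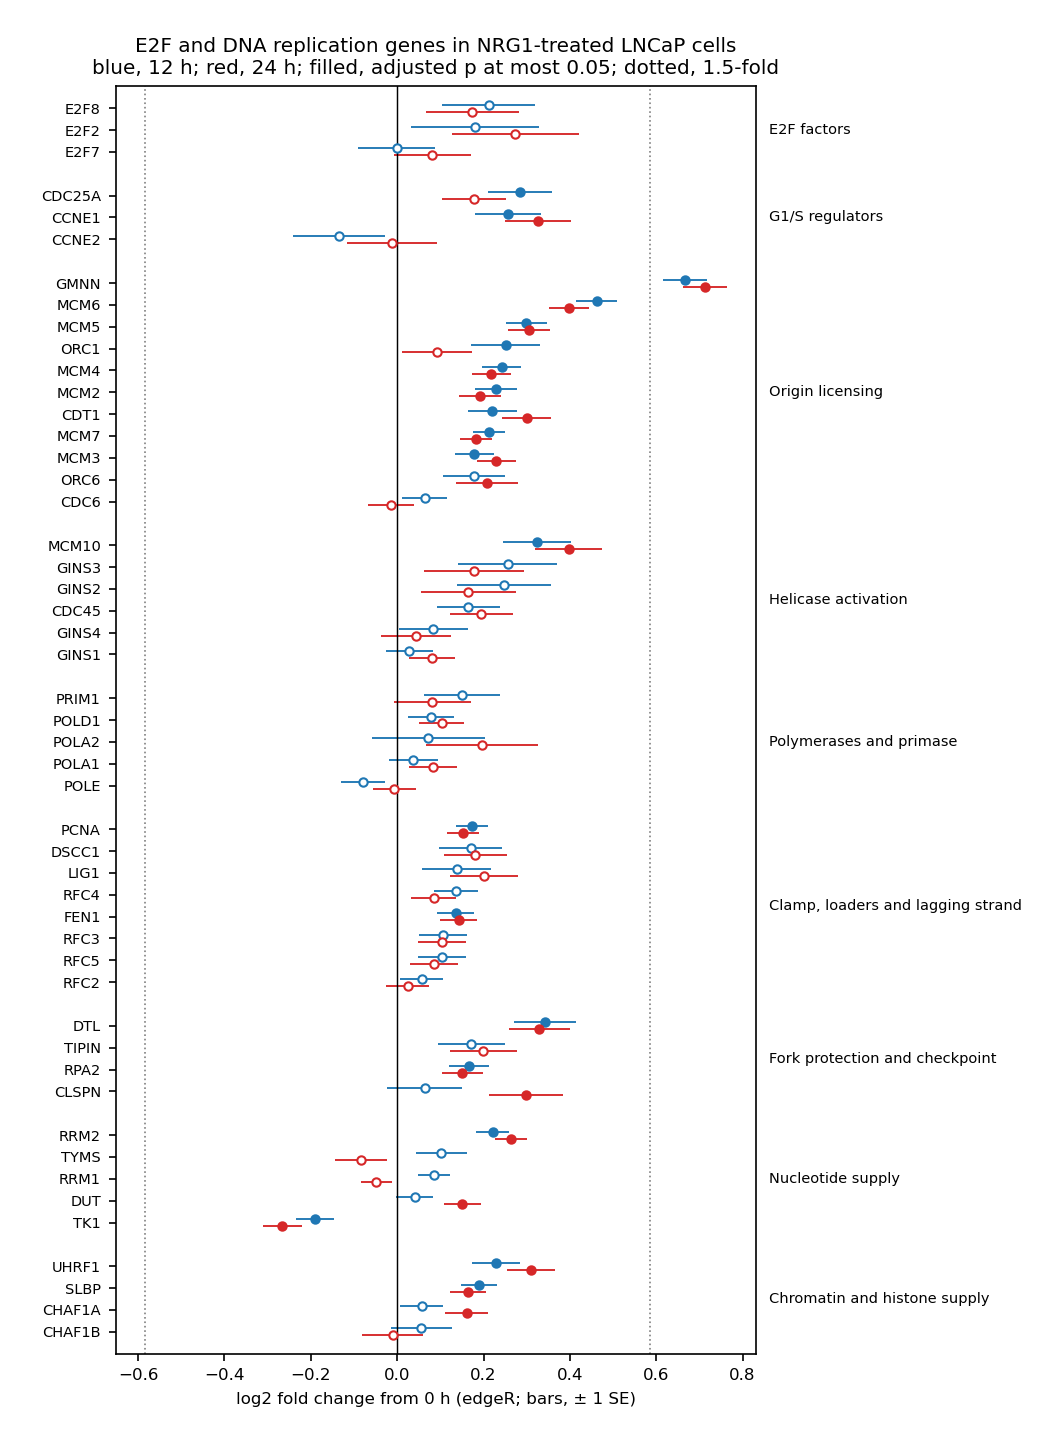
Log2 fold change from 0 hours fitted by edgeR (points, with bars of 1 SE) for the 49 genes at 12 hours (blue) and 24 hours (red), grouped by role. Filled points passed the adjusted threshold of 0.05 and dotted lines mark 1.5-fold. GMNN alone lies beyond a dotted line, MCM2 to MCM7 are filled at both times, and TK1 is the only filled gene below 0.

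Origin licensing held more of the rises than any other role. Of its 11 genes, 9 rose at 12 hours and 9 at 24 hours, with none falling and medians of 0.23 and 0.22 on the log2 scale. GMNN (ENSG00000112312.10, chr6:24774931-24786099, GRCh38), which encodes geminin, the inhibitor of CDT1, stood at 20.3, 19.7 and 20.04 CPM at 0 hours, at 32.9, 30.5 and 31.9 at 12 hours and at 31.1, 33.1 and 34.1 at 24 hours. The 0 hour values sat far below the other 6, which overlapped each other. Its log2 fold change was 0.67 (SE 0.051, edgeR adjusted p-value 1.69e-12) at 12 hours and 0.71 (SE 0.051, 1.72e-13) at 24 hours. Its target CDT1, which loads the MCM ring, was at 24.5, 28.9 and 27.7 CPM at 0 hours and rose by 0.22 and 0.30 on the log2 scale (edgeR adjusted p-values 0.0049 and 0.000142).

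All 6 subunits of the MCM2-7 helicase rose at both times, between 0.18 and 0.46 on the log2 scale at 12 hours and between 0.18 and 0.40 at 24 hours. MCM6 (ENSG00000076003.5, chr2:135839626-135876443) rose most. It was at 31.5, 33.3 and 33.0 CPM at 0 hours, 45.01, 45.06 and 44.7 at 12 hours and 46.3, 40.9 and 41.8 at 24 hours, so the treated libraries did not overlap those of 0 hours. The log2 fold changes were 0.46 (SE 0.047, edgeR adjusted p-value 1.66e-09) and 0.40 (SE 0.047, 3.11e-08). MCM5 was at 28.9, 30.7 and 28.6 CPM, then 36.1, 35.7 and 36.8 and then 35.3, 38.6 and 35.0, with log2 fold changes of 0.30 at both times (edgeR adjusted p-values 1.44e-05 and 8.47e-06).

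Per kilobase of exon, the level at 0 hours was highest for MCM7, at 24.5 ± 0.922 CPM (SD, n = 3), followed by MCM3 at 11.3 ± 0.473, MCM2 at 9.66 ± 0.553, MCM6 at 7.89 ± 0.233, MCM4 at 5.005 ± 0.252 and MCM5 at 4.04 ± 0.157. The length used was that of all annotated exons of a gene together. It was 9852 bases for MCM4 and 7268 for MCM5, against 4135 for MCM6 and 3645 for MCM3. The order of the subunits depends on that length, and their relative levels were not tested. Summed over the 6 subunits, the level was 59.8, 64.5 and 62.8 CPM per kilobase at 0 hours, 74.3, 74.1 and 74.3 at 12 hours and 74.9, 72.8 and 72.1 at 24 hours. The sum was thus higher in each treated library than in each 0 hour library. Among the 49 genes, 8 share over 10% of their exon bases with other genes. Of MCM2's exon bases, 23.6% are shared with an antisense RNA that had 3.81% of MCM2's counts. MCM7 overlaps AP4M1, on the opposite strand, over 392 bases.

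The remaining licensing genes were not uniform. ORC1, the largest subunit of the origin recognition complex, rose at 12 hours by 0.25 on the log2 scale (edgeR adjusted p-value 0.0226) and was 0.09 above 0 hours at 24 hours (0.481). ORC6 was 0.18 higher at 12 hours (0.0808 by edgeR) and rose by 0.21 at 24 hours (0.0338), with close copies of part of its sequence in several other genes. CDC6, which brings the MCM ring to ORC, was at 38.4, 42.0 and 46.5 CPM at 0 hours, and its differences of 0.06 and -0.01 did not pass. The 95% intervals of those differences, taken as normal from the SE, were -0.040 to 0.17 and -0.12 to 0.091.

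The regulators of entry into S phase were divided. CCNE1, a cyclin that activates CDK2, was at 11.5, 11.9 and 10.8 CPM at 0 hours, 15.0, 12.3 and 13.7 at 12 hours and 15.4, 14.5 and 13.1 at 24 hours. The treated libraries did not overlap those of 0 hours, and the log2 fold changes were 0.26 and 0.33 (edgeR adjusted p-values 0.0156 and 0.00156). The first of these calls was lost without 0 hour replicate 3 (adjusted p-value 0.0837) or 12 hour replicate 1 (0.155). CDC25A, the phosphatase that removes inhibitory phosphates from CDK2, was at 9.78, 10.4 and 10.7 CPM, then at 13.1, 12.9 and 11.5 and then at 12.1, 11.7 and 11.1. It rose by 0.28 at 12 hours (edgeR adjusted p-value 0.00509), while 0.18 at 24 hours did not pass (0.0924). CCNE2, the paralog of CCNE1, was at 6.07, 5.56 and 5.70 CPM at 0 hours, 5.71, 4.39 and 5.70 at 12 hours and 5.78, 5.90 and 5.51 at 24 hours. The 3 times overlapped, and its differences of -0.13 and -0.01 did not pass. A share of 37.1% of its exon bases is also covered by other genes, INTS8 among them, so its counts are uncertain.

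None of the 3 E2F genes in the set passed. E2F8, a repressor, was at 4.87, 4.62 and 4.32 CPM at 0 hours and at 5.11, 5.45 and 5.45 at 12 hours, so these libraries did not overlap, but the log2 fold change of 0.21 did not pass (edgeR adjusted p-value 0.183). At 24 hours its libraries, at 4.65, 5.20 and 5.72 CPM, overlapped those of 0 hours. E2F7, also a repressor, was at 7.37, 8.19 and 7.28 CPM at 0 hours and differed by -0.00073 and 0.08. Its read counts were 457, 475 and 425 at 0 hours, 444, 357 and 380 at 12 hours and 389, 438 and 408 at 24 hours. E2F2, an activator at 2.26 to 2.86 CPM at 0 hours, differed by 0.18 and 0.27 with an SE of 0.15 each, so a change of that size was not detectable at its depth.

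Of the 6 genes that turn the loaded ring into a helicase, MCM10 alone rose. MCM10, a factor needed to activate the helicase, was at 9.08, 10.6 and 10.8 CPM at 0 hours, 13.6, 11.8 and 12.7 at 12 hours and 14.3, 12.5 and 13.4 at 24 hours. Its log2 fold changes were 0.32 and 0.40 (SE 0.079 each, edgeR adjusted p-values 0.00265 and 0.000222). None of GINS1 to GINS4 passed. GINS2 was at 6.61, 9.54 and 9.32 CPM at 0 hours, 10.5, 10.3 and 9.40 at 12 hours and 10.6, 9.40 and 8.58 at 24 hours. GINS3 was at 4.03, 5.49 and 5.65 CPM, then 5.91, 5.49 and 6.71 and then 5.29, 6.07 and 5.76. For both, 0 hour replicate 1 was the lowest library and the times overlapped. Their log2 differences at 12 hours were 0.25 and 0.26 (edgeR adjusted p-values 0.128 and 0.125). That of GINS2 was 0.097 without 0 hour replicate 1, and without 0 hour replicate 2 it was 0.34 and passed (0.0405 by edgeR). CDC45 was 0.16 and 0.19 higher, with edgeR adjusted p-values of 0.12 and 0.0528.

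The polymerases did not pass at either time. POLA1, the catalytic subunit of DNA polymerase alpha, was at 20.8, 20.9 and 19.9 CPM at 0 hours, 21.4, 22.0 and 19.7 at 12 hours and 21.7, 22.0 and 21.5 at 24 hours. POLD1, the catalytic subunit of polymerase delta, was at 26.3, 30.1 and 26.5 CPM, then at 29.7, 28.2 and 29.5 and then at 28.4, 30.5 and 30.0. PRIM1, the primase subunit that makes RNA primers, was at 8.16, 10.3 and 8.26 CPM at 0 hours, 9.84, 10.3 and 9.48 at 12 hours and 9.10, 8.90 and 10.2 at 24 hours. Of PRIM1's exon bases, 8.19% are shared with NACA and HSD17B6. NACA, on the same strand, had 8468% of PRIM1's counts, so the counts of PRIM1 are uncertain. The libraries of 0 hours overlapped those of both later times for POLD1 and PRIM1, and those of 12 hours for POLA1, whose 24 hour libraries all lay above 0 hours. Without 0 hour replicate 2, PRIM1 passed at 12 hours (0.27, adjusted p-value 0.0381 by edgeR) and POLD1 at 24 hours (0.17, 0.0272). POLE, the catalytic subunit of polymerase epsilon, had log2 differences of -0.08 and -0.01, with 95% intervals of -0.18 to 0.019 and -0.10 to 0.091, which leave out the rise fitted for any MCM subunit. POLA2, at 3.15 ± 0.292 CPM at 0 hours (SD, n = 3), had an SE of 0.13, too wide to place a rise of that size.

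The clamp rose at both times, and none of its loaders passed. PCNA (ENSG00000132646.11, chr20:5114953-5126626), the ring that holds polymerases on DNA, was at 67.9, 69.3 and 70.7 CPM at 0 hours, 78.1, 77.4 and 78.9 at 12 hours and 78.7, 74.0 and 78.5 at 24 hours. The treated libraries all lay above those of 0 hours, with log2 fold changes of 0.17 and 0.15 (SE 0.037, edgeR adjusted p-values 0.000649 and 0.0021). FEN1, the flap endonuclease that trims Okazaki fragments, rose by 0.14 at both times. FEN1 overlaps FADS2, on the same strand, over 4259 bases. Only 2.23% of its exon bases are shared, but FADS2 had 5199% of FEN1's counts. None of RFC2 to RFC5, subunits of the clamp loader, passed, with log2 differences of 0.06 to 0.14 at 12 hours and 0.02 to 0.10 at 24 hours. For 3 of these 4 genes at 12 hours and 2 at 24 hours, all libraries lay above those of 0 hours. The 95% intervals of all 4 overlapped those of PCNA, 0.10 to 0.25 at 12 hours and 0.081 to 0.23 at 24 hours. A difference between clamp and loaders was not tested. LIG1, which seals the fragments, was at 10.4, 12.6 and 12.1 CPM at 0 hours, 13.5, 12.6 and 12.4 at 12 hours and 15.1, 12.6 and 12.7 at 24 hours, with log2 differences of 0.14 and 0.20 that did not pass. The second did pass without 0 hour replicate 2 (0.0344 by edgeR) or 24 hour replicate 2 (0.0449). DSCC1, part of an alternative clamp loader, was at 11.9, 10.7 and 12.7 CPM, then 13.5, 12.7 and 13.7 and then 13.3, 12.9 and 14.1, with edgeR adjusted p-values of 0.104 and 0.0739. Its 24 hour libraries lay above those of 0 hours, and both values passed without 0 hour replicate 3 (0.0456 and 0.0316).

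Among fork protection and checkpoint genes, DTL and RPA2 rose at both times and CLSPN at 24 hours. DTL, the receptor of the ubiquitin ligase that destroys CDT1 in S phase, was at 10.7, 10.7 and 11.7 CPM at 0 hours, 15.0, 12.9 and 13.98 at 12 hours and 14.1, 13.8 and 13.6 at 24 hours. No treated library overlapped those of 0 hours, and the log2 fold changes were 0.34 and 0.33 (edgeR adjusted p-values 0.000513 and 0.000678). CLSPN encodes claspin, an adaptor of the kinase CHK1. It was at 7.63, 7.57 and 8.26 CPM, then at 7.93, 8.69 and 7.89 and then at 10.6, 8.70 and 9.64. Its log2 fold change of 0.30 at 24 hours passed (edgeR adjusted p-value 0.0097) and was lost without 24 hour replicate 1 (0.23, adjusted p-value 0.0896). RPA2, of the complex that coats single-stranded DNA, rose by 0.17 and 0.15. TIPIN, of the fork protection complex, was at 11.4, 11.9 and 13.5 CPM at 0 hours, 14.3, 13.001 and 14.1 at 12 hours and 12.6, 14.1 and 15.6 at 24 hours. The times overlapped, and its differences of 0.17 and 0.20 did not pass (edgeR adjusted p-values 0.128 and 0.0643). Without 0 hour replicate 3 both passed (0.0395 and 0.0185), and the 24 hour value also passed without 24 hour replicate 1 (0.0158).

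Nucleotide supply held the set's only falls. TK1 (ENSG00000167900.12, chr17:78174091-78187233), thymidine kinase of the salvage pathway, was at 72.2, 83.3 and 77.1 CPM at 0 hours, 66.5, 67.8 and 69.4 at 12 hours and 66.4, 66.3 and 60.8 at 24 hours. All treated libraries lay below all 0 hour libraries. Its log2 fold changes were -0.19 (SE 0.044, edgeR adjusted p-value 0.00172) and -0.27 (SE 0.044, 2.44e-05). RRM2, the regulated subunit of ribonucleotide reductase, went the other way, from 70.3, 72.7 and 72.7 CPM to 85.5, 80.5 and 85.5 and then 88.4, 87.6 and 83.2, with rises of 0.22 and 0.26 (edgeR adjusted p-values 3.14e-05 and 1.19e-06). No E2F word was found in the RefSeq windows of TK1 or RRM2.

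RRM1, the large subunit of the same reductase, was the only gene of the 49 that passed between 12 and 24 hours. It was at 92.4, 97.6 and 101 CPM at 0 hours, 102, 101 and 105 at 12 hours and 93.5, 94.7 and 92.8 at 24 hours. The 24 hour libraries lay below those of 12 hours, with a log2 fold change of -0.13 (SE 0.036, edgeR adjusted p-value 0.0195), and neither time passed against 0 hours, although 12 hours did without 0 hour replicate 3 (0.0395 by edgeR). The call was lost without 12 hour replicate 3 (adjusted p-value 0.112), 24 hour replicate 1 (0.0612) or 24 hour replicate 3 (0.0765). Among all genes, 3.03% rose and 3.05% fell from 12 to 24 hours by the adjusted p-value, and 0 of the 49 genes rose. The median of the set was 0.0052 and 25 of 49 values were above 0, compared with 50.3% of all genes. All 24 hour libraries lay below those of 12 hours for 3 of the 49 genes and above for 3. Of all tested genes, 12.3% and 12.1% did so. The 3 that lay below were all genes of nucleotide supply.

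DUT, which removes dUTP, was at 44.8, 42.8 and 44.1 CPM at 0 hours, 45.3, 44.4 and 45.7 at 12 hours and 47.9, 47.0 and 51.3 at 24 hours. It rose by 0.15 at 24 hours (adjusted p-value 0.00867 by edgeR), and this no longer held without 24 hour replicate 3 (0.0897). An antisense RNA shares 14.5% of its exon bases and had 0.874% of its counts. TYMS, the thymidylate synthase, did not pass, with differences of 0.10 and -0.08 from 0 hours. Between 12 and 24 hours it differed by -0.19 (95% interval -0.30 to -0.067), which did not pass either. A share of 47.9% of its exon bases is shared with ENOSF1 and TYMSOS, so its counts are uncertain.

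Of the 4 genes that rebuild chromatin behind the fork, 2 rose at 12 hours and 3 at 24 hours. UHRF1, which guides maintenance of DNA methylation, was at 20.4, 23.0 and 20.7 CPM at 0 hours, 25.0, 24.8 and 25.3 at 12 hours and 27.5, 27.1 and 25.0 at 24 hours, with rises of 0.23 and 0.31 (edgeR adjusted p-values 0.0026 and 5.06e-05). SLBP, which binds the stem-loop of histone mRNA, was at 48.8, 46.9 and 45.5 CPM, then 53.9, 55.9 and 51.2 and then 53.5, 51.8 and 53.0. For both genes the treated libraries lay above those of 0 hours. SLBP rose by 0.19 and 0.16 (edgeR adjusted p-values 0.000958 and 0.00366). CHAF1A, the large subunit of the histone chaperone CAF-1, was at 31.9, 36.7 and 32.3 CPM at 0 hours, 35.8, 33.6 and 35.5 at 12 hours and 37.2, 38.2 and 37.3 at 24 hours. It rose at 24 hours by 0.16 (adjusted p-value 0.0169 by edgeR), and this no longer held without 0 hour replicate 1 (0.0862), 0 hour replicate 3 (0.0904) or 24 hour replicate 2 (0.065). Its partner CHAF1B differed by 0.06 and -0.01 and did not pass.

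**Figure D3:**
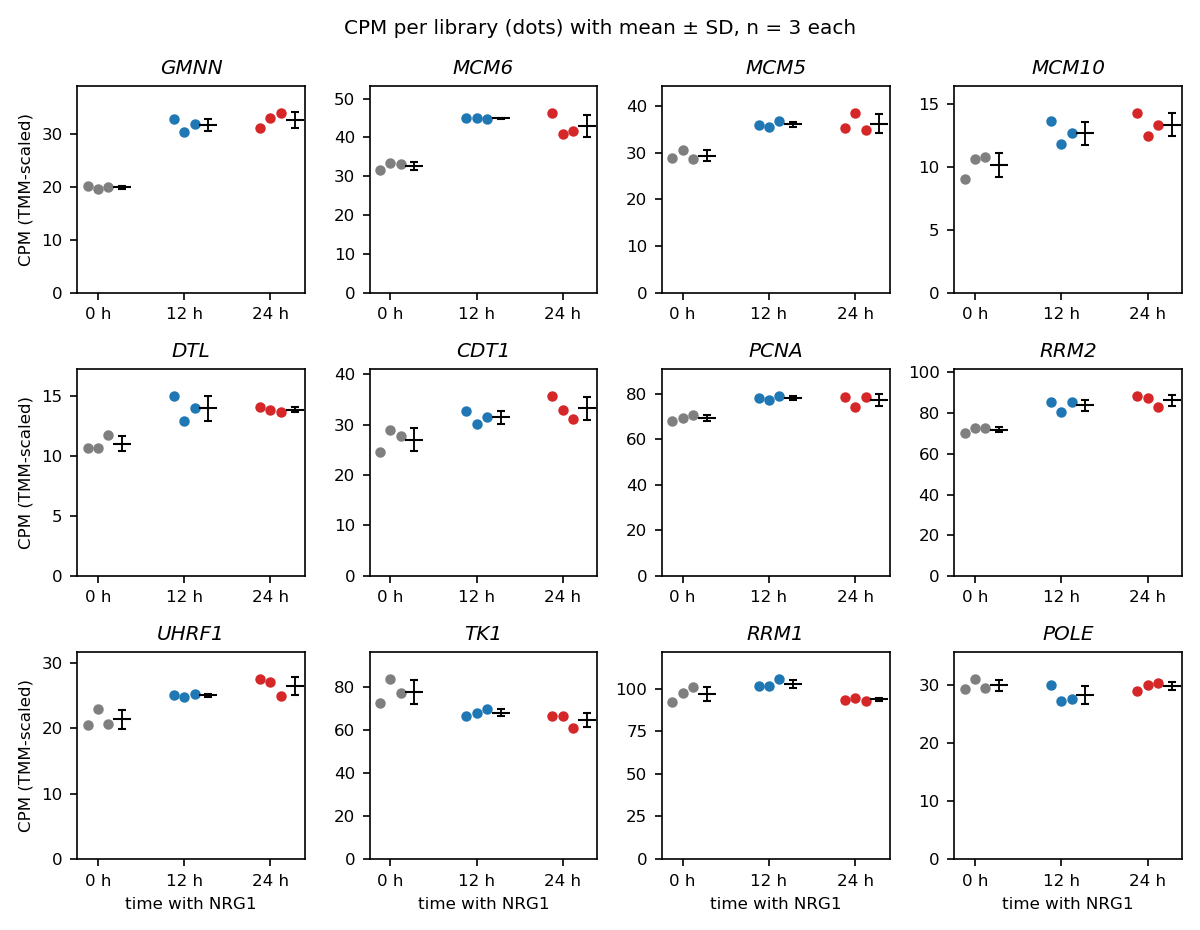
CPM on TMM-scaled library sizes for 12 genes in each library (dots) at 0, 12 and 24 hours of NRG1, with mean and SD (bars, n = 3 each) and axes from 0. GMNN and MCM6 show the widest gaps between 0 hours and the later times, TK1 is lower at both, RRM1 drops from 12 to 24 hours, and POLE overlaps at all times.

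The SE of the log2 fold change at 12 hours was 0.036 to 0.060 for the 28 genes at 20 CPM or more on average and 0.070 to 0.15 for the 21 genes below. Of the former, 17 passed at 12 or 24 hours, and of the latter, 7. Shares of all tested genes at these levels were not taken. The medians of the log2 fold change were 0.14 and 0.15 in the former and 0.17 and 0.18 in the latter. The differences in how many genes passed between levels and between role groups are descriptions of counts and were not tested.

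The E2F and RB families themselves, listed from general knowledge, moved in part. E2F1, an activator, was at 23.1, 24.4 and 23.0 CPM at 0 hours, 30.2, 27.5 and 27.5 at 12 hours and 27.4, 29.7 and 30.7 at 24 hours, with no overlap with 0 hours and rises of 0.27 and 0.32 (edgeR adjusted p-values 0.000265 and 2.5e-05). E2F5, which acts with the RB relatives, rose by 0.21 and 0.40, and RBL1, one of those relatives, by 0.23 and 0.26. E2F3 and E2F4 passed at 24 hours, with rises of 0.18 and 0.14. RBL2 fell at 12 hours by 0.16 and was 0.07 below 0 hours at 24 hours, which did not pass. E2F6, TFDP1, TFDP2 and RB1 did not pass, with RB1 at -0.0023 and 0.08. Of the 10 genes, 3 rose and 1 fell at 12 hours, where 10.6% of all tested genes rose and 8.16% fell. At 24 hours 5 rose, against 11.6% of all tested genes.

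Other genes of replication and S phase, outside the 49, were read from lists written from general knowledge. Of 33 other replication factors, 7 rose at 12 hours, against 10.6% of all tested genes, and 3 rose and 2 fell at 24 hours. At 24 hours these are shares no higher than the 11.6% and 9.48% of all tested genes that rose and fell. The falls were in POLE4, an accessory subunit of polymerase epsilon, by 0.27, and in RPA3, the small subunit of RPA, by 0.26. Of 19 other S phase genes, 5 rose at 12 hours and 4 at 24 hours, against 10.6% and 11.6% of all genes. CDCA7, a chromatin protein and E2F target, rose most at 24 hours, from 4.58, 5.02 and 4.32 CPM to 7.29, 6.14 and 7.18, with log2 fold changes of 0.35 and 0.56.

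Genes of the later cell cycle phases were read for comparison. Of 24 genes of G2 and mitosis, 3 rose at 12 hours, against 10.6% of all genes, with a median log2 fold change of 0.078. At 24 hours 17 fell from 0 hours and none rose, with a median of -0.18, where 9.48% of all genes fell. From 12 to 24 hours 18 fell, with a median of -0.27, where 3.05% of all genes fell. HMMR, a spindle protein, was at 64.6, 67.6 and 69.0 CPM at 0 hours, 70.7, 69.2 and 69.6 at 12 hours and 49.5, 51.7 and 53.6 at 24 hours. KIF20A, a mitotic kinesin, was at 35.9 to 39.5, then 40.3 to 41.5 and then 29.9 to 32.3 CPM. Of the 49 replication genes, 1 passed as lower at 24 than at 12 hours, and the difference between the lists was not tested.

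**Figure D4:**
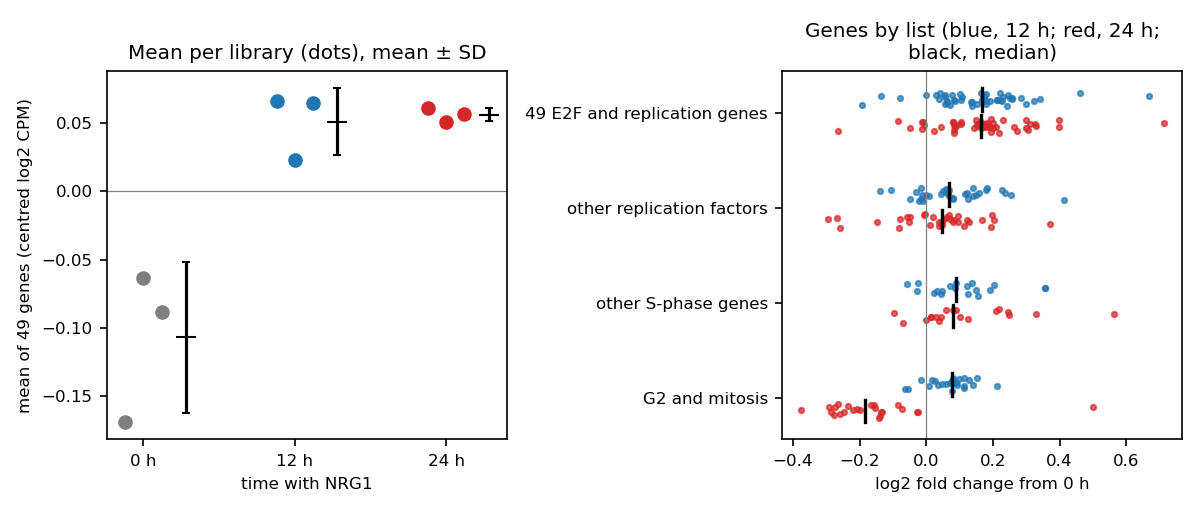
Left, mean over the 49 genes of centred log2 CPM for each library (dots) with mean and SD (bars, n = 3 each) by time. Right, log2 fold change from 0 hours of each gene in 4 lists at 12 hours (blue) and 24 hours (red) with medians as black lines. The 0 hour means run from -0.169 to -0.0634 and the others from 0.0225 to 0.0656, and all but 1 of the G2 and mitosis genes lie below 0 at 24 hours.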

How the data were processed

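Per the study's methods, the authors trimmed reads with Cutadapt, aligned them with STAR to GRCh38 and counted them per gene with featureCounts. The submitters' processing notes name Cutadapt 4.5, STAR 2.7.11a, featureCounts 2.0.2 and DESeq2 1.30.1. The strand setting was not given in the sources used here, and overlapping genes may share reads. The study left out 1 replicate of LNCaP cells at time 0 for quality, without naming its treatment in the methods. Its figure legends give 3 replicates for the RNA-Seq of NRG1-treated cells, and fewer for some groups treated with asporin, another protein tested there. The authors deposited raw counts as whole numbers, without normalization, and 14 empty columns were not used.

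Libraries were fitted together with edgeR 4.0.16 (R 4.3.3), after filterByExpr and TMM scaling, with a robust quasi-likelihood model of the 3 times and no covariate. Benjamini-Hochberg adjustment ran over the 19250 tested genes of each comparison. The study's thresholds (0.05 on the adjusted p-value, with a fold of 1.5) were used, as was the adjusted p-value alone. Centred log2 CPM had a prior count of 2. Exon lengths were those of all exons of a gene in GENCODE, merged over its transcripts. Copies were matches of at least 95% identity over 150 bases between longest transcripts (BLAST 2.17.0). Within groups, the chi-square statistic of counts over its degrees of freedom was 3.06 to 8.34, so no library was a repeat of another. Depth covers counting error only, since reads carried no molecular identifiers.

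The genes and lists were chosen with earlier results of these data known. Values in every library were given for the 3 genes of each role with the largest change from 0 hours among those averaging 2 or more in log2 CPM, and for genes past both thresholds or differing between 12 and 24 hours. E2F2, CDT1, CDC6 and the other genes named beyond that rule were chosen after their values were seen. A gene of the other lists that met the rule is not reported here. Alternatives were DESeq2 1.42.0, size factors, no scaling factor, other count filters, only the 6 libraries compared, no mitochondrially encoded genes, thinning to the smallest total, the replicate number as a block and each replicate left out. Removal of GC and length trends was added after seeing the data. The methods were tested on simulated data.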

Additional observations from a re-analysis of the deposited data

Results flagged for a closer look

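Of the genes named by rule, those given here are the ones whose changes at 12 hours and at 24 hours, both from 0 hours, differed by the direct edgeR test of 24 against 12 hours, with 3 libraries at each time. RRM1 had a log2 fold change of -0.13 between these times, RPA3 of -0.25, KIF20A of -0.40 and HMMR of -0.44. The 24 hour libraries lay below all 12 hour libraries in each of the 4 genes. RRM1 was named for this same difference, and RPA3, KIF20A and HMMR for large changes in this experiment. The differences of all 4 genes are thus in part a product of their selection. Other genes of the lists also differed between these times. Of 19 other S phase genes 1 was higher at 24 hours and 2 were lower. Of 33 other replication factors 0 were higher and 2 lower, and of 24 genes of G2 and mitosis 0 and 18. Among all tested genes 3.03% were higher and 3.05% lower. DNMT1, the maintenance DNA methyltransferase, was the S phase gene that was higher, by 0.17 on the log2 scale, and was named after its value was seen.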

How the results depend on the processing

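Of 27 calls on named genes of the set, 22 kept their direction and their side of the threshold in all 20 alternatives, and 5 were lost in at least 1 (CCNE1 at 12 hours, CLSPN, DUT and CHAF1A at 24 hours, RRM1 between the times). No value reversed. Conversely, 10 values of named genes that did not pass did so in 1 to 5 alternatives, which for TIPIN at 24 hours included the replicate block (log2 fold change 0.20, edgeR adjusted p-value 0.0464) and the removal of GC and length trends (0.0465), and for DUT between the times that removal (0.15, 0.0216). Without the fold threshold 20, 22 and 1 genes of the set passed at 12 hours, at 24 hours and between them, and with a fold of at least 2, 0 and 0 passed at 12 and 24 hours. When 1 replicate was left out, 16 to 23 genes rose at 12 hours and 18 to 23 at 24 hours, medians were 0.118 to 0.175 and 0.145 to 0.178, and 0 to 2 genes fell from 12 to 24 hours. The genes lower at 24 than at 12 hours numbered 2 with all genes with a count, 2 with only the 6 libraries compared, and 0 with GC and length trends removed, where RRM1 had an edgeR adjusted p-value of 0.0527. With those trends removed, without or with the replicate block, 1 gene was higher at 24 than at 12 hours. The cause was not tested. With only the words ending in GCGC, 28.1% of the set's promoter windows held an E2F word, against 1.70% of windows of tested genes. The deviations of libraries with the same replicate number correlated at -0.037 to 0.029, all under 0.1, so the numbers were not taken as pairs. With the replicate block, 19 genes rose at 12 hours and 22 at 24 hours, 1 fell in each comparison, and the F test of any difference gave 25 genes against 24 without the block. Depth limits genes such as E2F2 and POLA2, with SEs of 0.15 and 0.13.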

Other observations

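A pair of genes from the other lists had few reads although they are known to be used in dividing cells. RNASEH2A, a subunit of the nuclease that removes ribonucleotides from DNA, had 4 to 19 counts per library, and NUSAP1, a spindle protein, had 10 to 22. Their changes did not pass.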
